A study of Mus musculus with 8 samples.

Results

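Translation initiation factors were taken as every gene whose symbol begins with Eif and a digit, leaving out the 4 symbols that mark pseudogenes. The rule found 55 genes among the 19558 genes of the deposited table, with 317 of its 74764 transcripts. Each library was made from polyadenylated hippocampal RNA of a wild-type C57BL/6 KP mouse at postnatal day 40. The 4 KU55933 mice received this blocker of the ATM kinase through the nose under anesthesia at 7.5 mg/kg. The 4 vehicle mice received 4% DMSO in saline by the same route, and the labels print the same dosage beside both groups. All animals were thus of 1 strain, genotype and age, and when the tissue was collected after dosing is not stated. Estimated counts were summed per gene, to ask how the mRNA of each factor differs between mice given the ATM blocker and their controls.

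Initiation factors bring the small ribosomal subunit, the initiator tRNA and the mRNA together. The eIF4F complex binds the cap of the mRNA and unwinds its leader, eIF2 delivers the initiator tRNA as a complex with GTP, and eIF3 holds the small subunit while eIF1, eIF1A and eIF5 select the start codon. Phosphorylation of eIF2 and sequestering of eIF4E by its binding proteins are the main brakes on the pathway, and in hippocampal neurons both are known to control the protein synthesis that lasting synaptic change needs.

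Library totals were 40586998 to 46630341 estimated counts in vehicle and 34190440 to 37499003 in KU55933. Markers of hippocampal pyramidal and granule neurons were present in every library, with 10 of 10 listed and vehicle means of 26.9 to 461 CPM (counts scaled to the library's size by the TMM method), and 5 of the 10 were lower in KU55933. Their summed level was 1360 to 1579 CPM in vehicle and 1155 to 1349 CPM in KU55933. Summed choroid plexus markers reached 1911 and 1793 CPM in KU55933 libraries 1 and 2, against 170 to 335 CPM in vehicle and 267 and 226 CPM in KU55933 libraries 3 and 4, and 1 of those 10 markers was called higher. Summed markers of subcortical neurons were 157 to 174 CPM in vehicle and 163 to 239 CPM in KU55933, with 3 of 8 called higher. For astrocytes 1 of 5 markers was called, lower, and for endothelium 1 was higher and 1 lower of 5, while none of 5 was called for oligodendrocytes or for microglia. Of all genes tested, 6.92% were called higher and 14.6% lower. After subtracting the dependence on GC content and length in each library, 0 markers of these lists were called (1.96% of all genes tested). Of the 5 hippocampal markers called lower, C1ql2, Wfs1 and Grik4 kept log2 changes below 0, at -0.43, -0.38 and -0.28, while those of Pou3f1 and Bok turned to 0.13 and 0.24. Neurod6, not called in either fit, went from -0.07 to -0.26. The part of these differences in the results on initiation factors was not tested, and leaving out KU55933 libraries 1 and 2 is given beside the main counts.

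Together the initiation factors took 0.591% ± 0.00811 of all vehicle counts and 0.632% ± 0.0225 of all KU55933 counts (SD, n = 4 each). The vehicle libraries lay between 0.584% and 0.603% and the KU55933 libraries between 0.608% and 0.662%, without overlap. This share weighs abundant genes most, such as Eif4a2 (means of 562 and 681 CPM in vehicle and KU55933) and Eif4g2 (632 and 766 CPM). It was not recomputed after subtracting the dependence on GC content and length. In bulk tissue, fewer cells of a type and less RNA per cell cannot be told apart, which holds for every value here. Of the 55 genes, 54 passed the filter on low counts. Eif4a3l2, a near copy of Eif4a3, did not, with means of 0.107 and 0.069 CPM in vehicle and KU55933.

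With edgeR's quasi-likelihood test, adjusted over 15481 genes and called under 0.05, 9 of the 54 tested genes were higher in KU55933 (16.7%, against 6.92% of all genes tested) and 5 were lower (9.26%, against 14.6% of all genes). The other 40 were not called. In either direction the 14 calls made 25.9% of the factors, against 21.6% of all genes. The groups did not overlap in 20 of 54 factors (37%), against 26.7% of all genes. In 13 of these every KU55933 library was above every vehicle library (background 10.7%) and in 7 every one was below (background 15.9%). The median log2 change of KU55933 minus vehicle was 0.08 over the factors and 0.01 over all genes tested. No called factor differed by more than the 1.44-fold of Eif6.

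The calls depended on single libraries, as did those over all genes tested. With 1 library left out, the calls over all genes ran from 1597 to 4348, against 3338 with all libraries. The count over all genes without KU55933 1 and 2 together is not given here. With vehicle 3 left out 1 factor was higher and 2 lower, with vehicle 4 left out 1 and 3, with vehicle 2 left out 3 and 2, with KU55933 2 left out 3 and 2, with KU55933 1 left out 4 and 4, and with KU55933 3 left out 6 and 3. With KU55933 4 left out they were 10 and 5, and with vehicle 1 left out 11 and 6. Without KU55933 libraries 1 and 2 together, 1 factor was higher, Eif2s1, and 2 were lower, Eif4h and Eif6. These 3 genes were also the ones whose call held with any 1 of the 8 libraries left out, and the other 11 had adjusted p values of 0.073 to 0.215 without KU55933 1 and 2. All 14 called genes kept their sign in each of these fits.

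**Figure D1:**
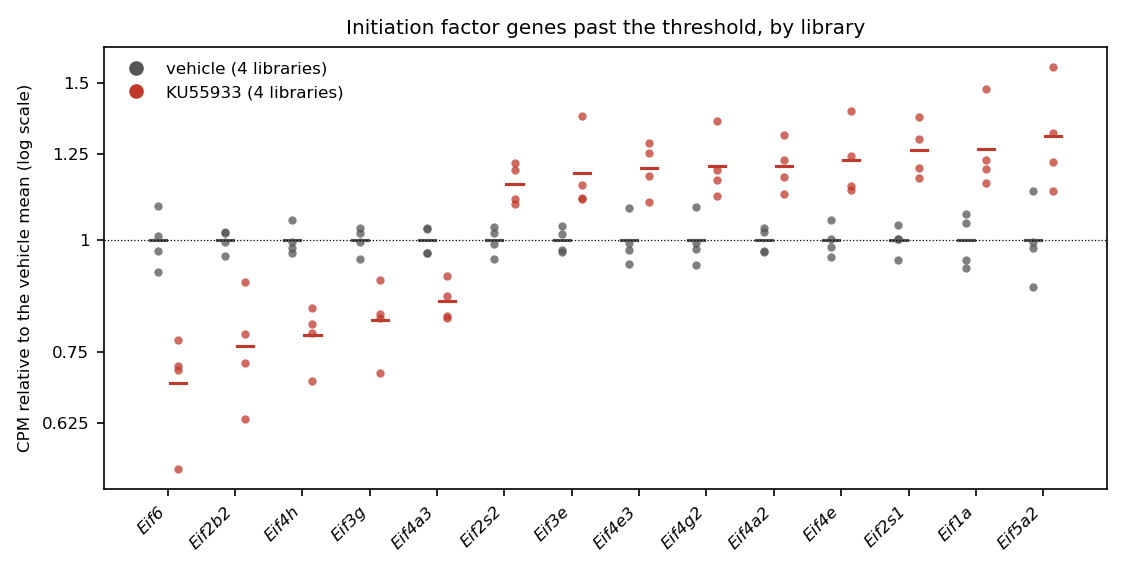
CPM of the 14 called initiation factor genes in each library, divided by the gene's vehicle mean, on a log axis; points are libraries (4 vehicle, 4 KU55933) and bars are group means. The KU55933 points of Eif6, Eif2b2, Eif4h, Eif3g and Eif4a3 lie below all vehicle points, those of the genes from Eif2s2 to Eif1a lie above them, and the groups of Eif5a2 touch.

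The direction of a factor followed its base composition. The 9 genes that rose had a GC content of 38.8% to 45.05% and the 5 that fell had 53.7% to 57.3%, weighted over each gene's transcripts. Among the 27 factors at or below the median GC content of 50.1%, 9 were higher and 0 lower, with a median log2 change of 0.21. Among the 27 above it, 0 were higher and 5 lower, with a median of -0.08. Spearman's rho between log2 change and GC content was -0.83 across the 54 genes, and -0.83 across the 52 with at least 100 counts in every library. The points share the same 8 libraries, and across all 15470 genes with a GC value rho was -0.71. The trend sits in the libraries: the slope of log2 CPM on GC content over all genes was 0.14 to 0.27 per 10 points of GC in the vehicle libraries and -0.35 to -0.12 in the KU55933 libraries. Since it separates the groups, a difference in GC trend and the treatment cannot be told apart.

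When each library's own trend on GC content and transcript length was subtracted as an offset before the edgeR fit, 0 of 54 factors were called, against 304 genes in all (1.96%). At an unadjusted p under 0.05 there were 6 factors with the offset and 24 without it, where 2460 and 5846 of all 15481 genes tested were. Those 6 were Eif4e2, Eif4h, Eif2b2, Eif3b, Eif4ebp2 and Eif1b, and the smallest adjusted p among the factors was 0.13, that of Eif1b. The median log2 change became 0.02 over the factors and 0.01 over all genes. The median absolute change went from 0.18 to 0.08 over the factors and from 0.21 to 0.12 over all genes. With the offset, 0 factors were called with any library left out, where 81 to 712 of all genes were.

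**Figure D2:**
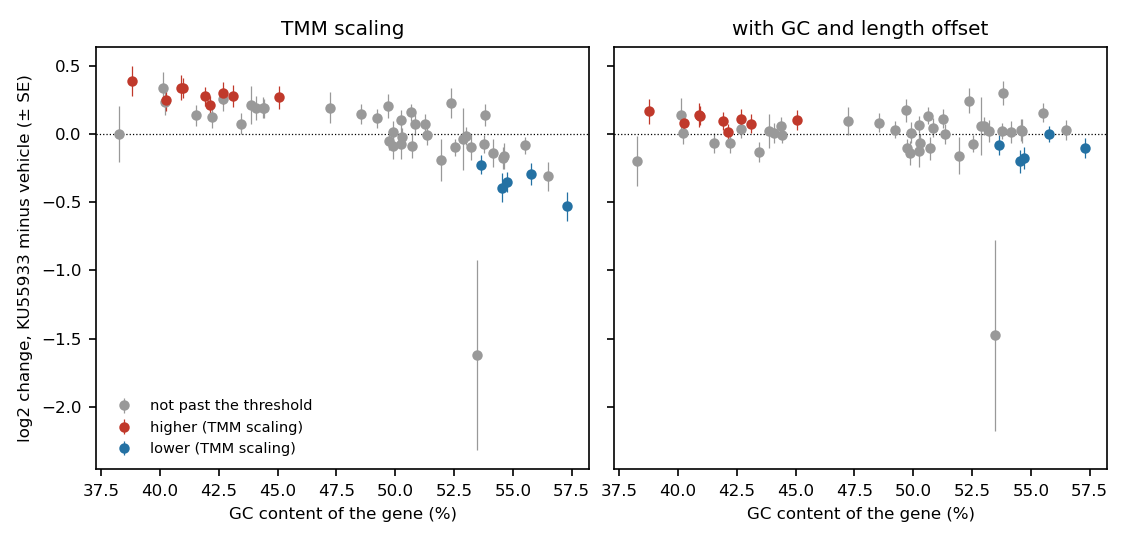
Log2 change (KU55933 minus vehicle, ± SE) of the 54 tested initiation factor genes against the gene's GC content, with TMM scaling (left) and with the offset for GC content and length (right); red and blue mark genes called higher and lower with TMM scaling. On the left the genes fall from upper left to lower right, and on the right they lie around 0; the low point near -1.62 is Eif4ebp3, which had at most 1.24 CPM.

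The contrast is illustrated with the coding sequences of chosen genes. The first 90 coding bases of a pair of factors that rose, Eif2s1 and Eif4e, and of a pair that fell, Eif2b2 and Eif6, are shown from GENCODE M21 transcripts, with capitals at every G or C in the third position of a codon.
Eif2s1: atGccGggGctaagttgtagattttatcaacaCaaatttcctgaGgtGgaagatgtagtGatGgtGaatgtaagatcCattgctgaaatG
Eif4e: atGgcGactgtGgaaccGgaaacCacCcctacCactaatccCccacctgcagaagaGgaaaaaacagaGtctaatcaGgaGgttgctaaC
Eif2b2: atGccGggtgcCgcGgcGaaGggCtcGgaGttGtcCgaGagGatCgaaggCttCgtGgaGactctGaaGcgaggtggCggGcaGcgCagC
Eif6: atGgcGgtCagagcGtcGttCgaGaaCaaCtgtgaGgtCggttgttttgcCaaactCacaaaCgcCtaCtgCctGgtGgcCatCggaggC
Of these 30 codons, 11 in Eif2s1 and 13 in Eif4e end in G or C, against 25 in Eif2b2 and 22 in Eif6. Over the whole coding sequence the share was 39.9% and 43.1% in the pair that rose and 70.7% and 71.1% in the pair that fell. Across the 54 factors, Spearman's rho of the log2 change was -0.72 with coding GC content and -0.65 with the third position alone. Eif4e3 departed from this order, since it rose although 59.6% of its codons end in G or C. The first 30 codons alone do not sort the factors by direction. Of them 24 end in G or C in Eif4e3, more than in Eif6. In Eif3j1 and Eif3j2, with log2 changes of 0.26 and 0.34 and not called, 26 do, more than in Eif2b2.

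Among the 10 genes of eIF4F and its helpers, 4 rose (Eif4e, Eif4e3, Eif4a2 and Eif4g2), 1 fell (Eif4h) and 5 were not called, with a median log2 change of 0.15. For this and the role groups below, the shares over all genes tested were 6.92% higher and 14.6% lower. No group was tested as a set. Eif4e encodes the protein that binds the mRNA cap. It was at 107, 102, 99.8 and 97.3 CPM in the vehicle libraries and at 142, 126, 117 and 116 CPM in the KU55933 libraries. Every KU55933 library was above every vehicle library, with a 1.23-fold difference (log2 change 0.30 ± 0.08 SE, edgeR adjusted p = 0.024). The call was lost without KU55933 2 or without vehicle 2, 3 or 4, where the adjusted p reached 0.0767. Eif4e3, a cap-binding relative, rose 1.21-fold from 19.2 ± 1.2 to 23.2 ± 1.55 CPM (SD, n = 4, adjusted p = 0.0438), a call lost without 5 of the 8 libraries (KU55933 1 or 2, or vehicle 2, 3 or 4, adjusted p up to 0.124). Eif4e2, whose product binds the cap but not the eIF4G scaffold, went from 54.1 ± 2.15 to 60.4 ± 1.71 CPM (SD, n = 4). The groups did not overlap, and the adjusted p was 0.0923.

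The eIF4A helicases unwind the leader of the mRNA. Eif4a2, the neuronal form, was at 574, 581, 546 and 547 CPM in vehicle and at 738, 663, 634 and 691 CPM in KU55933. The groups did not overlap and the rise was 1.21-fold (log2 change 0.28 ± 0.07 SE, adjusted p = 0.0193, up to 0.0702 without vehicle 3 or 4, where the call was lost). Eif4a1 was at 298, 327, 282 and 313 CPM in vehicle and at 367, 337, 310 and 339 CPM in KU55933, and the groups overlapped (log2 change 0.15 ± 0.08 SE, adjusted p = 0.179). The ratio of Eif4a2 to Eif4a1 per kilobase went from 1.67 ± 0.0892 to 1.82 ± 0.0327 (SD, n = 4). Reads of Eif4a1 can be hard to assign, since 67.2% of the 31-base words of its main transcript also occur in other genes, mostly in the pseudogene Eif4a-ps4. Salmon gave that pseudogene 120 counts over all libraries, against 99173 for Eif4a1. The share of such words was 13.1% for Eif4a2 and 13.8% for Eif4e3. Of the helicase's helpers, Eif4b was at 239, 257, 238 and 249 CPM in vehicle and at 263, 238, 238 and 228 CPM in KU55933, with overlapping groups (adjusted p = 0.821). Eif4h was at 373, 394, 362 and 367 CPM in vehicle and fell to 315, 261, 302 and 295 CPM in KU55933. All KU55933 libraries were below all vehicle libraries, the difference was 1.28-fold (log2 change -0.35 ± 0.07 SE, adjusted p = 0.00889), and the adjusted p was at most 0.0347 with any library left out and 0.0299 without KU55933 1 and 2. With the GC and length offset its log2 change was -0.18 (adjusted p = 0.303).

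The scaffolds that join cap, helicase and ribosome differed among themselves. Eif4g1, the main scaffold, was at 315, 297, 314 and 325 CPM in vehicle and at 314, 291, 295 and 288 CPM in KU55933. Eif4g3, its relative, was at 242, 243, 254 and 259 CPM in vehicle and at 232, 229, 232 and 240 CPM in KU55933. Neither passed the test (adjusted p = 0.424 and 0.272), although the groups of Eif4g3 did not overlap. Eif4g2 encodes DAP5, which lacks the eIF4E-binding part of the scaffold and serves initiation without the cap-binding protein. Its annotated coding sequence begins with the codon GTG in place of ATG, shown in capitals in the first 30 coding bases from GENCODE M21.
Eif4g2: GTGgagagtgcgattgcagaagggggtgct
Eif4g2 was at 689, 619, 594 and 628 CPM in vehicle and at 860, 757, 739 and 709 CPM in KU55933. Its lowest KU55933 library was above its highest vehicle library, and the rise was 1.21-fold (log2 change 0.28 ± 0.08 SE, adjusted p = 0.0343). That call was lost without KU55933 1, 2 or 3 or without vehicle 2, 3 or 4 (adjusted p up to 0.109). Per kilobase Eif4g2 went from 2.26 ± 0.153 to 2.87 ± 0.136 times Eif4g1 (SD, n = 4). The ratio did not overlap between groups, and Eif4g2 has 43.1% GC against 53.8% in Eif4g1.

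The binding proteins that hold eIF4E away from eIF4G were not called, with 0 of 4 past the threshold. Eif4ebp2, the form that prevails in brain, was at 107, 81.9, 82.1 and 86.8 CPM in vehicle and at 114, 102, 114 and 89.7 CPM in KU55933. The groups overlapped through vehicle 1 (log2 change 0.23 ± 0.11 SE, adjusted p = 0.146), and without vehicle 1 the gene was called higher (adjusted p = 0.03). Under the offset its log2 change was 0.25 (adjusted p = 0.221). Eif4ebp1 was at 1.05, 1.29, 0.899 and 1.02 CPM in vehicle and at 0.907, 0.817, 1.09 and 1.33 CPM in KU55933. Eif4ebp3 had at most 1.24 CPM and 0 counts in KU55933 1. Its log2 change of -1.62 ± 0.70 SE was not called (adjusted p = 0.119), and 66.4% of its 31-base words also occur in Maskbp3. Per kilobase the level of Eif4ebp2 was 0.321 ± 0.0327 times that of Eif4e in vehicle and 0.307 ± 0.0334 times in KU55933 libraries (SD, n = 4), with overlapping groups. Eif4enif1, whose product carries eIF4E into the nucleus, had 49.4 ± 1.47 and 53.1 ± 2.87 CPM in vehicle and KU55933 (SD, n = 4) and was not called.

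Of the 6 genes of eIF2 and other carriers of initiator tRNA, 2 rose and none fell. Eif2s1 encodes the alpha subunit, whose phosphorylation stops initiation. It was at 37.7, 36.4, 34.5 and 36.4 CPM in vehicle and at 49.8, 43.7, 42.5 and 47.04 CPM in KU55933. The groups did not overlap, and the rise of 1.26-fold (log2 change 0.34 ± 0.07 SE, adjusted p = 0.0108) kept its call with each library left out (adjusted p at most 0.0461) and without KU55933 1 and 2 (adjusted p = 0.044). Eif2s2, the beta subunit, was at 61.0, 63.6, 62.7 and 58.6 CPM in vehicle and at 75.02, 68.4, 67.5 and 73.7 CPM in KU55933. It rose 1.16-fold without overlap (log2 change 0.21 ± 0.07 SE, adjusted p = 0.0458), and the call was lost whichever library was left out (adjusted p 0.056 to 0.127). With the offset the log2 changes were 0.14 for Eif2s1 and 0.01 for Eif2s2. Of the 31-base words of Eif2s2, 32.1% also occur in Gm9892, which had 38 counts over all libraries.

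The gamma subunit, which binds GTP and the tRNA, is encoded on both sex chromosomes. Eif2s3x was at 116, 119, 112 and 110 CPM in vehicle and at 153, 130, 121 and 119 CPM in KU55933, and the groups met at 119 CPM (adjusted p = 0.128). Eif2s3y, the Y-linked copy, was at 49.9, 60.0, 62.9 and 58.7 CPM in vehicle and at 36.0, 73.4, 50.1 and 72.1 CPM in KU55933. All 8 libraries thus held Y-linked transcripts, and the KU55933 libraries enclosed the vehicle range from both sides. Eif2a and Eif2d, whose proteins can bring tRNA to the ribosome without eIF2, were not called (log2 change 0.13 and -0.19).

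Subunits of eIF2B, the complex that reloads eIF2 with GTP and is mutated in vanishing white matter disease, went in different directions. Eif2b2, the beta subunit, was at 23.1, 23.1, 22.6 and 21.8 CPM in vehicle and at 16.5, 14.3, 17.8 and 20.3 CPM in KU55933. It fell 1.31-fold without overlap (log2 change -0.39 ± 0.11 SE, adjusted p = 0.0251), a call lost without KU55933 1 or 2 or vehicle 2 or 3 (adjusted p up to 0.0675) and without KU55933 1 and 2 together (adjusted p = 0.134). Eif2b4, the delta subunit, was at 22.7, 27.2, 25.7 and 24.9 CPM in vehicle and at 19.9, 16.8, 21.6 and 22.8 CPM in KU55933. Its groups overlapped by 1 library each, and it was not called (log2 change -0.31 ± 0.11 SE, adjusted p = 0.0578) except without KU55933 4 or without vehicle 1 (smallest adjusted p 0.0371). Eif2b1, the alpha subunit, was at 20.4, 21.0, 19.2 and 17.9 CPM in vehicle and at 25.0, 22.3, 21.1 and 22.2 CPM in KU55933. Those groups did not overlap, but the gene did not pass the test (log2 change 0.21 ± 0.09 SE, adjusted p = 0.11).

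Eif2b3, the gamma subunit, was at 10.1, 11.7, 11.3 and 10.8 CPM in vehicle and at 14.6, 12.6, 10.2 and 12.8 CPM in KU55933. Eif2b5, the catalytic epsilon subunit, was at 51.2, 55.4, 52.6 and 52.3 CPM in vehicle and at 56.6, 50.1, 51.4 and 51.7 CPM in KU55933. Both overlapped between groups (adjusted p = 0.247 and 0.917). Per kilobase, Eif2b1 went from 0.682 ± 0.0287 to 1.05 ± 0.184 times Eif2b2 (SD, n = 4). In the KU55933 libraries the ratio was 1.19, 1.23, 0.933 and 0.857, so that Eif2b1 was above Eif2b2 in libraries 1 and 2 and below it in libraries 3 and 4. Libraries 1 and 2 had high choroid plexus markers. They also had GC slopes of -0.28 and -0.35 per 10 points of GC, against -0.12 in each of libraries 3 and 4. The part of either in the ratio was not tested. The GC content of the 5 genes ran from 47.2% in Eif2b3 and 49.7% in Eif2b1 to 54.5% in Eif2b2 and 56.5% in Eif2b4, and with the offset their log2 changes lay between -0.20 and 0.17.

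The 4 kinases that phosphorylate eIF2 were not called, and at an unadjusted p under 0.05 there were also 0 of 4 (5846 of all 15481 genes tested). Eif2ak1, the heme-regulated kinase, was at 76.1, 75.4, 72.7 and 73.8 CPM in vehicle and at 88.1, 77.8, 80.3 and 76.7 CPM in KU55933, without overlap (log2 change 0.12 ± 0.07 SE, adjusted p = 0.235). Eif2ak2, the kinase PKR that double-stranded RNA switches on, was at 6.82, 7.12, 7.39 and 6.05 CPM in vehicle and at 9.86, 7.83, 7.72 and 6.40 CPM in KU55933. The lowest KU55933 library lay inside the vehicle range. Eif2ak3, the kinase PERK of the endoplasmic reticulum, was at 28.6, 24.9, 25.6 and 24.6 CPM in vehicle and at 29.2, 27.5, 27.6 and 25.0 CPM in KU55933. Eif2ak4, the kinase GCN2 that senses uncharged tRNA, was at 25.2, 26.8, 33.95 and 29.2 CPM in vehicle and at 22.7, 28.1, 29.0 and 29.8 CPM in KU55933. In both the ranges overlapped, and the 4 log2 changes ran from -0.07 to 0.22.

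The 14 genes of eIF3 split by sign, with 6 log2 changes above 0 and 8 below and a median of -0.03. Of them 1 was called higher (Eif3e), 1 lower (Eif3g) and 12 were not called. Eif3e rose 1.19-fold from 70.9 ± 2.25 to 84.4 ± 8.995 CPM (SD, n = 4, log2 change 0.25 ± 0.08 SE, adjusted p = 0.0499). KU55933 1 stood highest at 97.7 CPM, and leaving out any library other than KU55933 4 ended the call (adjusted p up to 0.134). Of the 31-base words of Eif3e, 34.1% also occur in other genes. Eif3g, which binds RNA and the scanning helicase complex, fell 1.23-fold from 49.3 ± 1.67 to 40.2 ± 3.88 CPM (SD, n = 4, log2 change -0.29 ± 0.08 SE, adjusted p = 0.0278). Its groups did not overlap, and the call was lost without KU55933 2 or 3 or vehicle 2, 3 or 4 (adjusted p up to 0.0769). With the offset its log2 change was 0.00.

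Eif3a, the largest subunit and scaffold of the complex, was at 208, 188, 184 and 190 CPM in vehicle and at 238, 220, 206 and 212 CPM in KU55933. Vehicle 1 overlapped the KU55933 range (log2 change 0.19 ± 0.07 SE, adjusted p = 0.0848), and without it the gene was called higher (adjusted p = 0.0459). The loosely attached subunit eIF3j is encoded by a pair of near-identical genes. Eif3j1 was at 45.9 ± 2.14 and 54.8 ± 5.76 CPM and Eif3j2 at 8.5 ± 0.998 and 10.8 ± 1.01 CPM in vehicle and KU55933 (SD, n = 4), with adjusted p values of 0.0519 and 0.0579. Both were called higher without vehicle 1, and Eif3j1 also without KU55933 4 (smallest adjusted p 0.0314 and 0.0263). Their separate levels are uncertain, since 94.0% of the 31-base words of Eif3j2 occur in Eif3j1. Per kilobase in vehicle, the subunits ran from 85.9 ± 5.72 CPM in Eif3k and 62.1 ± 1.84 CPM in Eif3h to 8.53 ± 0.398 CPM in Eif3j1 and 3.57 ± 0.42 CPM in Eif3j2 (SD, n = 4). The other subunits, Eif3b, Eif3c, Eif3d, Eif3f, Eif3h, Eif3i, Eif3k, Eif3l and Eif3m, had log2 changes from -0.16 (Eif3d) to 0.19 (Eif3m). Groups did not overlap in Eif3b, which was lower in KU55933, and in Eif3m, which was higher.

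**Figure D3:**
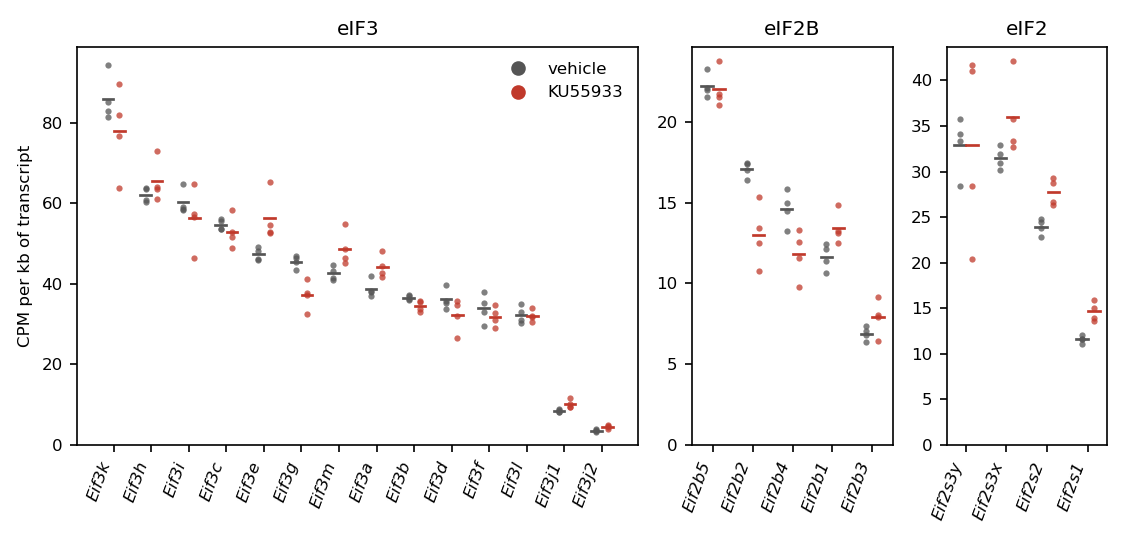
CPM per kilobase of transcript of the subunit genes of eIF3, eIF2B and eIF2; points are libraries and bars are group means (4 vehicle, grey; 4 KU55933, red), and each panel has its own axis starting at 0. Within eIF3 the levels span Eif3k at the top to Eif3j2 at the bottom in both groups, and within eIF2B the vehicle points of Eif2b2 lie above those of Eif2b1, while the KU55933 points of these genes overlap.

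Among the 7 genes of start codon selection and subunit joining, 1 rose (Eif1a) and 6 were not called. Eif1a and Eif1ax encode eIF1A, which with eIF1 holds the scanning ribosome open. Eif1a rose 1.27-fold from 38.3 ± 2.64 to 48.6 ± 5.45 CPM (SD, n = 4, log2 change 0.34 ± 0.09 SE, adjusted p = 0.0246), with no overlap. The call was lost without vehicle 3 or 4 (adjusted p up to 0.0821). Eif1ax, the X-linked copy, was at 181, 166, 167 and 170 CPM in vehicle and at 240, 197, 192 and 176 CPM in KU55933. KU55933 4 lay inside the vehicle range (log2 change 0.24 ± 0.09 SE, adjusted p = 0.09), and without it the gene was called higher (adjusted p = 0.0342).

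Eif1 and Eif1b encode eIF1, the guard of start codon choice. Their first 90 coding bases from GENCODE M21 are shown to compare these copies, with capitals where they differ.
Eif1: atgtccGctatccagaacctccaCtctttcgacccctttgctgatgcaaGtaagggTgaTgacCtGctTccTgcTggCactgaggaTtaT
Eif1b: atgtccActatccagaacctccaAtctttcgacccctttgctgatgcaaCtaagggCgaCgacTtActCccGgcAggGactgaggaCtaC
The printed stretches differ at 13 bases and the coding sequences are identical at 278 of 342 (81.3%), and no 31-base word of Eif1b occurs in any other gene. Of the words of Eif1, 35.2% occur in other genes, 23.5% in Emd, so that its level and its ratio to Eif1b are less certain. Eif1 was at 260, 259, 261 and 273 CPM in vehicle and at 309, 253, 254 and 249 CPM in KU55933, where library 1 was high and the other 3 were below all vehicle libraries (adjusted p = 0.905). Eif1b was at 70.2, 71.3, 69.4 and 75.1 CPM in vehicle and at 90.8, 74.2, 75.4 and 74.7 CPM in KU55933, again highest in library 1 (log2 change 0.14 ± 0.08 SE, adjusted p = 0.227). Library 1 moved both genes together, so that the per-kilobase ratio of Eif1b to Eif1 was 0.308, 0.315, 0.304 and 0.314 in vehicle and 0.336, 0.335, 0.340 and 0.343 in KU55933. The ratio was higher in every KU55933 library than in any vehicle library, with means of 0.338 and 0.31, and was not tested. Eif1b has 53.8% GC and Eif1 49.9%. With the GC and length offset Eif1b had the largest positive log2 change of the factors, 0.30, which was not called (adjusted p = 0.13).

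Eif5, which makes eIF2 hydrolyse its GTP, was at 198, 227, 224 and 220 CPM in vehicle and at 262, 244, 228 and 223 CPM in KU55933. Eif5b, which joins the large subunit, was at 94.7, 88.9, 87.7 and 89.2 CPM in vehicle and at 104, 92.0, 84.7 and 100 CPM in KU55933. In both the groups overlapped (adjusted p = 0.211 and 0.492). Eif1ad, a nuclear protein related to eIF1A, was at 19.4 ± 1.76 and 18.3 ± 1.13 CPM (SD, n = 4) and was not called.

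Eif6 showed the largest fall among the called factors. Its protein keeps the large ribosomal subunit from joining too early. Eif6 was at 28.8, 31.6, 34.05 and 30.4 CPM in vehicle and at 22.3, 17.3, 22.6 and 24.2 CPM in KU55933. The groups did not overlap and the fall was 1.44-fold (log2 change -0.53 ± 0.11 SE, adjusted p = 0.00714), with an adjusted p of at most 0.0292 when any library was left out and 0.0352 without KU55933 1 and 2. Eif6 also had the highest GC content of the factors, 57.3%, and with the offset its log2 change was -0.10 (adjusted p = 0.539).

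Eif5a encodes the hypusine-bearing factor that helps the ribosome through difficult peptide bonds, and Eif5a2 its relative. Eif5a was at 234, 267, 231 and 247 CPM in vehicle and at 238, 192, 215 and 221 CPM in KU55933, with overlap through KU55933 1 (log2 change -0.18 ± 0.08 SE, adjusted p = 0.141). Eif5a2 was at 57.1, 49.98, 49.2 and 44.6 CPM in vehicle and at 78.5, 66.2, 61.5 and 57.0 CPM in KU55933. The lowest KU55933 library was just under the highest vehicle library, and the rise of 1.31-fold (log2 change 0.39 ± 0.11 SE, adjusted p = 0.0293) lost its call without KU55933 1 or 2 or vehicle 2, 3 or 4 (adjusted p up to 0.0883). Per kilobase Eif5a2 was 0.0524 ± 0.00731 of Eif5a in vehicle libraries and 0.0774 ± 0.0102 of it in KU55933 libraries (SD, n = 4), and the groups did not overlap. The 2 genes lie far apart in GC content, at 54.6% and 38.8%. Eif4a3, a helicase of the exon junction complex that marks spliced mRNA, fell 1.17-fold from 38.5 ± 1.4 to 33.0 ± 1.69 CPM (SD, n = 4, log2 change -0.23 ± 0.07 SE, adjusted p = 0.0434). Its groups did not overlap, but leaving out KU55933 2, 3 or 4 or vehicle 2, 3 or 4 ended the call (adjusted p up to 0.125), and 32.7% of its 31-base words also occur in Eif4a3l2.

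Across the factors Eif4a2 was highest per kilobase, at 311 ± 9.95 CPM per kilobase in vehicle libraries and 376 ± 24.4 in KU55933 libraries (SD, n = 4), and Eif4ebp1 was lowest of the tested genes in vehicle, at 0.945 ± 0.144. After Eif4a2 the vehicle order was Eif1 (223 ± 5.63), Eif5a (192 ± 12.8), Eif4a1 (187 ± 11.8), Eif4g2 (153 ± 9.79) and Eif4h (152 ± 5.75). Within this order Eif5a and Eif4a1, and likewise Eif4g2 and Eif4h, differed by less than their SD. A helicase, the guard of the start codon and the hypusine factor thus led the order. The kinases of eIF2 lay low, from 17.3 ± 0.36 for Eif2ak1 down to 1.71 ± 0.145 for Eif2ak2. Subunits of eIF2 and eIF2B also fell in that range, such as Eif2s1 at 11.6 ± 0.428 and Eif2b1 at 11.6 ± 0.797.

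Of the 317 transcripts of the factors, 226 were tested, and edgeR called 2 higher and 6 lower, 3.54% against 6.76% of all 45343 transcripts tested (1.06% higher and 5.7% lower). At an unadjusted p under 0.05 there were 43, and the share over all transcripts at this threshold is not given here. Salmon shares reads between transcripts of a gene by estimate, so these values rest largely on the bases that are private to each transcript. Private here means absent from the other transcripts of the same gene. In the called transcripts, private words of 31 bases ran from 0.757% (Eif4g3 ENSMUST00000105831) to 22.0% (Eif3a ENSMUST00000235706) of the transcript's own. With the GC and length offset 3 transcripts were called, against 2.06% of all transcripts, and these 3 were also called without it: 1 each of Eif6, Eif4g3 and Eif3b. Protein-coding transcripts took 92.6% ± 0.865 and 92.8% ± 1.43 of the factors' counts in vehicle and KU55933 (SD, n = 4). Retained-intron transcripts took 3.83% ± 0.643 and 3.38% ± 1.07, and transcripts annotated for nonsense-mediated decay 3.05% ± 0.202 and 3.25% ± 0.323. Most of the latter came from Eif4a2, whose decay transcript ENSMUST00000131871 took 22.6% ± 2.14 and 21.3% ± 2.67 of the gene's counts and was not called (adjusted p = 0.444).

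In Eif6 the decay transcript ENSMUST00000154841 rose while the main coding transcript ENSMUST00000029142 fell. The decay transcript was at 0.114, 0, 0 and 0.0728 CPM in vehicle (5, 0, 0 and 3 counts) and at 1.68, 1.48, 1.84 and 2.35 CPM in KU55933 (57, 53, 69 and 86 counts). All KU55933 libraries were above all vehicle libraries (log2 change 5.18 ± 0.84 SE, adjusted p = 0.0102, at most 0.038 with any library left out, and 0.02 with the offset). Its share of the gene's counts went from 0.157% ± 0.189 to 8.57% ± 1.09 (SD, n = 4). The main transcript went from 30.3 ± 2.21 to 18.4 ± 2.90 CPM (SD, n = 4, log2 change -0.72 ± 0.13 SE, adjusted p = 0.0159), a call lost without KU55933 1 or vehicle 3 (adjusted p up to 0.0585) and with the offset (adjusted p = 0.866). Within the gene, the assignment to the decay transcript rests on 1 stretch, bases 82 to 139 of its 548, which lies within its annotated coding part. The stretch holds the 28 words of 31 bases found in no other transcript of Eif6. Transcripts of other genes were not searched for these words. It is shown from GENCODE M21 with capitals at the 4 bases between the flanks.
Eif6 ENSMUST00000154841: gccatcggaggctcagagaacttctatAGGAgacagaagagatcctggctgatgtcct
In the main transcript the same flanks are separated by 266 bases, that is by 262 more.

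Eif4g3 transcript ENSMUST00000105831 was at 2.21, 14.4, 5.15 and 9.37 CPM in vehicle and was listed at 0 in all 4 KU55933 libraries. Taking 3 counts per library as the least that could be told from 0, the vehicle mean was 93.2 times this floor in KU55933. Vehicle 1, at 2.21 CPM, lay well below that mean. Counts are shared between transcripts by estimate, so the ratio is not a bound on the true difference. The transcript was called lower (edgeR adjusted p = 0.00908, at most 0.0334 with any library left out, and 0.0236 with the offset). This coding transcript took 3.09% ± 2.12 (SD, n = 4) of the gene's counts in vehicle and has 47 private words of 31 bases, 0.757% of its own. Eif3b transcript ENSMUST00000199377 rose from 2.84 ± 0.501 to 5.47 ± 0.483 CPM (SD, n = 4, log2 change 0.94 ± 0.19 SE, adjusted p = 0.022, and 0.0457 with the offset). It went from 3.08% ± 0.535 to 6.41% ± 0.601 of the gene's counts, and the call was lost without KU55933 3 or 4 or vehicle 2, 3 or 4 (adjusted p up to 0.0701). Eif3c transcript ENSMUST00000180459 fell (log2 change -2.84 ± 0.58 SE, adjusted p = 0.0236), as did the retained-intron transcript ENSMUST00000235706 of Eif3a (log2 change -2.47 ± 0.60 SE, adjusted p = 0.0472). Both were at most 4.42 CPM in any library and were not called with the offset (adjusted p = 0.0766 and 0.0601). Leaving out KU55933 2 or 3 or vehicle 3 or 4 ended the call in Eif3c (adjusted p up to 0.0956), and leaving out any library ended it in Eif3a (up to 0.12).

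Within Eif5a the main transcript ENSMUST00000108613 was at 175, 196, 168 and 175 CPM in vehicle and fell to 143, 116, 132 and 113 CPM in KU55933. Its share of the gene went from 72.0% ± 0.663 to 58.7% ± 4.11 (SD, n = 4), without overlap (log2 change of the level -0.50 ± 0.10 SE, adjusted p = 0.0189). Transcript ENSMUST00000164359 went from 10.6% ± 2.46 to 21.6% ± 3.75 of the gene and ENSMUST00000108608 from 2.15% ± 0.738 to 7.52% ± 3.53 (SD, n = 4), and neither level passed the test (adjusted p = 0.074 and 0.0615). The rare transcript ENSMUST00000108611 fell from 4.21 ± 2.18 to 1.25 ± 0.408 CPM (SD, n = 4, log2 change -1.75 ± 0.42 SE, adjusted p = 0.0443). Without KU55933 2 or vehicle 4 the main transcript was not called (adjusted p up to 0.204), and the rare one was called in the fit without vehicle 1 but in no other with 1 library left out (adjusted p up to 0.155). Neither was called with the offset (adjusted p = 0.67 and 0.146). The main transcript has 21 private words of 31 bases.

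**Figure D4:**
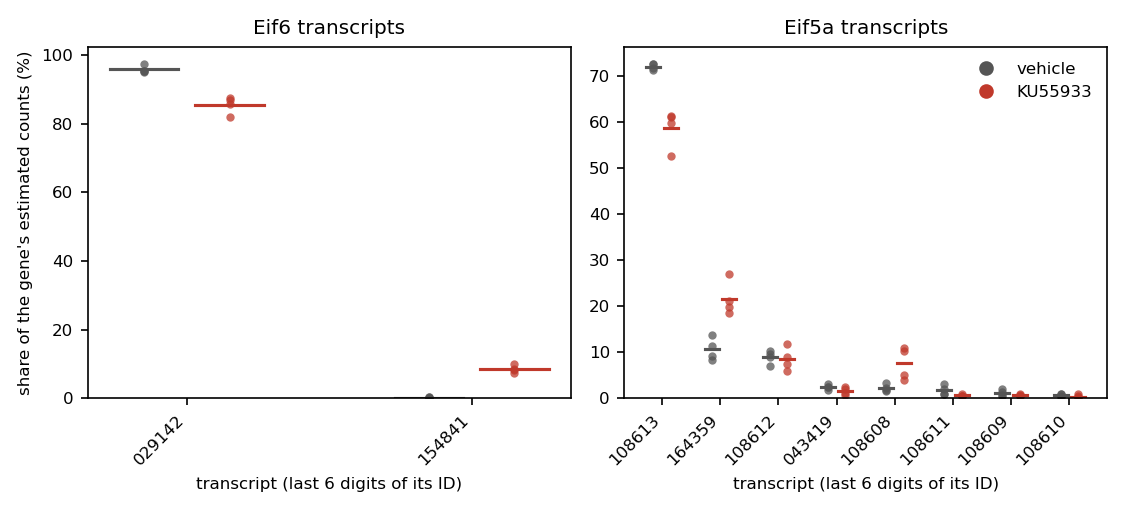
Share of the gene's estimated counts (%) on transcripts of Eif6 (left) and Eif5a (right); points are libraries, bars are group means (4 vehicle, grey; 4 KU55933, red), and transcripts are named by the last 6 digits of their ID. The decay transcript of Eif6 is near 0 in vehicle and at 7.47% to 10.04% in KU55933, and the main transcript of Eif5a drops from about 72.0% to 58.7%.

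Of 57 other genes of translation and its control, 7 were higher and 12 lower, where 6.92% and 14.6% of all genes tested were called. With the GC and length offset 0 were called (1.96% of all genes), and 10 had an unadjusted p under 0.05 (2460 of all 15481 genes tested). Their counts also moved with single libraries, from 0 to 10 higher and from 5 to 15 lower, while calls over all genes ran from 1597 to 4348. Without KU55933 1 and 2 together the counts of these partner genes were 0 and 4. Among 15 genes of elongation and termination 2 rose and 5 fell. Eef2, the translocase of the ribosome, went from 1128 ± 75.8 to 745 ± 106 CPM (SD, n = 4, log2 change -0.60, adjusted p = 0.00333) and Eef1a2, the neuronal carrier of charged tRNA, from 698 ± 22.3 to 509 ± 73.9 CPM (log2 change -0.46, adjusted p = 0.0115). Eef1d, a subunit of the exchange factor of that carrier, fell (log2 change -0.31), while Abce1, which splits ribosomes after termination, rose (0.28). Their GC content was 57.0%, 60.6%, 55.7% and 40.3% in this order. With the offset the log2 change of Eef1a2 turned to 0.28 (edgeR adjusted p = 0.215), and those of Eef2, Eef1d and Abce1 became -0.23, -0.03 and 0.07.

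Among 22 partners of the cap, the poly(A) tail and the start site, 3 rose and 2 fell (6.92% and 14.6% of all genes tested). Mknk2, a kinase of eIF4E, went from 40.2 ± 2.7 to 28.4 ± 5.39 CPM (SD, n = 4, log2 change -0.50, adjusted p = 0.0203), and Pabpc4, a poly(A)-binding protein, fell as well (log2 change -0.35). Paip2b, an inhibitor of poly(A)-binding protein, rose (log2 change 0.35), as did Ncbp2 of the nuclear cap-binding complex (0.25). With the offset Mknk2 turned to a log2 change of 0.08, and Pabpc4, Paip2b and Ncbp2 kept their sign at -0.29, 0.21 and 0.08. Among 20 genes of eIF2 phosphorylation and its ATF4 targets, 2 rose and 5 fell (6.92% and 14.6% of all genes tested). The log2 change was above 0 in 10 of them and below 0 in 10. Impact and Nck1 rose (log2 change 0.33 and 0.32, and 0.13 and 0.15 with the offset). Atf4 itself was not called (0.02, and 0.17 with the offset). Gcn1, the activator of the kinase GCN2, went from 112 ± 6.26 to 65.0 ± 11.8 CPM (SD, n = 4, log2 change -0.79, adjusted p = 0.00149). Atf5, itself induced when eIF2 is phosphorylated, fell (log2 change -0.60), and so did the stress genes Sesn2 (-0.33) and Ddit4 (-0.47). With the offset Atf5 and Sesn2 turned to log2 changes of 0.15 and 0.20, Ddit4 was at 0.00, and Gcn1 was at -0.35 (edgeR adjusted p = 0.0833). The members of this list that fell include the activator of a kinase as well as targets, and the 5 that fell had at least 57.4% GC.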

How the data were processed

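The members and the role, partner and marker lists were chosen with earlier results of these data known. The authors deposited estimated counts per transcript in whole numbers, and the submitters' processing notes name FastQC 0.11.9, Salmon 1.4.0, DESeq2 1.32.0 and the build GRCm39. The labels describe a stranded poly(A) library kit. Every sample is labelled hippocampus, although the extraction text states RNA inputs for hypothalamus and PFC. Rounding and filters before deposit were not stated.

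Counts were summed per gene and tested with edgeR 4.0.16 (filterByExpr, TMM, robust two-sided quasi-likelihood F test, limma 3.58.1, R 4.3.3) without a block, with Benjamini-Hochberg adjustment over 15481 genes or 45343 transcripts and a threshold of 0.05. CPM uses TMM-scaled library sizes. P-values measure the spread between libraries, counted in the labels as mice. GC content and length came from GENCODE M21 (GRCm38) transcripts, which matched 99.7% of transcripts. As the builds differ, no genome coordinates are given. The offset was a spline fitted per library on GC content and length (6 and 5 degrees of freedom). Values per library were given for a fixed set of role representatives and for members that passed the test with a log2 change of at least 0.5, other members by mean, range or count, and partner genes by the up to 4 smallest p-values per list. Impact, Nck1 and Atf4 were named as well. Alternatives were RLE and upper-quartile scaling, other filters, non-robust dispersion, DESeq2 1.42.0, limma-voom, the replicate block, the offsets, an adjusted p under 0.1 and libraries left out. The tests were tried on simulated data.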

Additional observations from a re-analysis of the deposited data

Results flagged for a closer look

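Among 110 groups of 4 libraries, 1 per factor and treatment, 5 had a library far from the other 3 by Dixon's criterion for groups of this size, where chance gives about 1 in 20. In KU55933, library 1 stood apart for Eif1 (309 CPM, next 254), Eif1b (90.8 CPM, next 75.4) and Eif3e (97.7 CPM, next 81.8). In vehicle, library 2 was high for Eif3i (70.7 CPM, next 64.5) and library 4 for Eif1 (273 CPM, next 261). KU55933 1 was also a library with high choroid plexus markers, while KU55933 2, which shared those markers, did not stand apart for these genes.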

How the results depend on the processing

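Counts are given as higher and lower, against 9 and 5 for factor genes, 7 and 12 for the 57 partner genes and 2 and 6 for factor transcripts. For the genes, RLE and upper-quartile scaling, a filter of 1 CPM in 4 libraries, DESeq2, limma-voom, non-robust dispersion and no filter gave 6 to 13 higher and 4 to 6 lower factors. Under the GC offset, and under the GC and length offset, both factor counts and both partner counts were 0, and for transcripts the latter gave 2 and 1. Without KU55933 1 and 2 together there were 1 and 2 factors and 0 and 4 partners. An adjusted p under 0.1 gave 15 higher factors and 14 higher partners. Partners called higher were 12 with DESeq2, 4 with limma-voom and 2 with no filter. For transcripts RLE scaling gave 2 lower, and the filter of 1 CPM gave 6 and 11. With 1 library left out the factors ranged from 1 to 11 higher and 2 to 6 lower, partners from 0 to 10 and 5 to 15, and transcripts from 1 to 3 and 2 to 6. Calls over all genes then ranged from 1597 to 4348. With the offset as well, factors were 0 and 0, partners 0 higher and 0 to 1 lower, and all genes 81 to 712. The cause of these shifts was not tested. Leaving a library out both lowers the number of libraries and removes its values, and these fits cannot tell those apart.

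Whether the replicate numbers pair the libraries was not settled. The deviations of same-numbered libraries correlated at 0.29, 0.084, 0.039 and 0.2. Vehicle 1, 2 and 4 each correlated best with the KU55933 library of the same number, and vehicle 3 with KU55933 2. With the replicate block, 11 factors were higher and 6 lower, 11 partners higher and 15 lower, and 2 transcripts higher and 2 lower. With the replicate block and the GC and length offset together, 1 factor was higher (Eif1b) and 0 lower, with 0 and 2 partners.

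Called factors changed direction in fits with the GC and length offset and in no other fit. Eif3g had a log2 change of 0.00313 with the offset and 0.00255 with the block and the offset. With the offset and 1 library left out it had 0.0216, 0.0129 and 0.00855 (without KU55933 2, 3 or 4) and 0.0131, 0.00624 and 0.00857 (without vehicle 1, 2 or 4). Eif2s2 had -0.0130, -0.000694 and -0.00522 (without KU55933 1 or 4 or vehicle 4) and Eif3e had -0.000321 (without KU55933 1). The depth limits Eif4ebp1, Eif4ebp3 and Eif4a3l2, with about 1 CPM or less.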
